A study of Mus musculus with 9 samples.

Results

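Mesenchymal cells of young mouse bone were set against mesenchymal cells of thymus and of skin, and the genes that stood apart in bone were those that differed from the mean of both other tissues and went the same way against each of them. Each of the 3 tissues entered with 3 bulk RNA-seq libraries, so the 3 bone libraries are 3 of the 9 in the series. Of 23420 genes in the count tables, 15635 had enough reads to be tested; 3164 were called higher in bone and 3015 lower, 6179 in all. All cells came from C57BL/6 mice of 3 to 4 weeks of age with no treatment or engineered allele named. They were sorted as SCA1-positive cells without the endothelial protein CD31, the epithelial protein EpCAM and the blood cell proteins CD41, TER119, B220, GR-1, CD11b, CD4, CD2 and CD45, with at least 25000 cells a sample. Bone cells were released from femur, tibia and pelvis by digestion and crushing, followed by lysis of red cells. One of the 3 thymus libraries carries the number 1-3, which the labels do not explain, and it may be a pool. The labels do not state whether libraries of one tissue were taken from different mice, and a p-value therefore reflects library-to-library spread that may be technical. In bulk samples fewer cells of a type and less RNA per cell cannot be told apart.

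Long bones grow by endochondral ossification. Chondrocytes of the growth plate lay down cartilage of type II collagen and aggrecan, enlarge into hypertrophic cells that make type X collagen, and are replaced by bone formed by osteoblasts. The joint end keeps a permanent cartilage, lined by superficial cells and synovium that secrete lubricin, and tendons and ligaments attach nearby. Marrow stroma between the trabeculae feeds blood stem cells, and the same cavity produces granulocytes, monocytes, B cells, red cells and platelets. A cell suspension from bone can therefore hold skeletal cells and blood cells side by side, and the lists below keep their genes apart.

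The libraries held 78757872 (Bone 3) to 116759235 (Skin 3) reads assigned to genes. Reads outside annotated genes made up 12.4 to 14.0% of counted reads in bone, 9.08 to 10.0% in thymus and 4.58 to 5.48% in skin, and the TMM scaling factors were 1.16 to 1.23, 1.10 to 1.18 and 0.701 to 0.770. Levels are given as CPM, read counts scaled to library size and these factors, with bone values in the order Bone 1, Bone 2 and Bone 3. The gene of the positive sort marker, Ly6a, read 327, 240.1 and 273 CPM in bone against 377 to 476 in thymus and 669 to 1381 in skin. Mesenchymal Pdgfra was abundant in all 9 libraries, at 698 to 805 CPM in bone, 1129 to 1202 in thymus and 695 to 869 in skin, and Pdgfrb read 259 to 289.5, 717 to 823 and 205 to 309. Transcripts of several proteins used to remove cells were present in bone all the same. Ptprc, which encodes CD45 and B220, read 74.4, 73.6 and 81.3 CPM in bone against 7.26 to 38.6 in thymus and 0.484 to 2.27 in skin, and Itgam, which encodes CD11b, read 81, 64.1 and 74 CPM in bone against 0.764 to 1.58 in thymus and 2.15 to 5.17 in skin. Itga2b (CD41) stood at 11.6 to 24.3 CPM in bone and 15 to 19.7 in skin, which overlap, and at 0.663 to 1.79 in thymus. Pecam1 (CD31) read 12.9 to 15.3, 8.01 to 13.4 and 4.14 to 7.77 CPM in bone, thymus and skin. Epcam was at 0 to 0.369 CPM in bone, Cd2 at 1.85 to 3.97 and Cd4 at 2.13 to 2.98.

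A gene counts here as called when it passed an adjusted p of 0.05 for bone against the mean of both other tissues and had the same sign against each. Throughout, the mean of both tissues is the mean of their fitted log2 levels, not of their CPM. A tissue with few reads can therefore make the difference large. Among all genes tested 20.2% were called higher and 19.3% lower by this rule. A stricter each-tissue rule, passing against thymus and against skin separately, called 9.94% higher and 9.5% lower. In all, 6736 genes passed against the mean and 557 of them were dropped because their signs were opposite. Of the 3164 higher genes, 2343 had every bone library above all 6 others, and 2016 of the 3015 lower genes had every bone library below. A difference of at least 2-fold from each tissue was found for 1442 higher and 788 lower genes. The balance of directions depended on the scaling: 51.2% of calls were higher with TMM scaling and 78.0% with library size alone, which moved the median log2 difference of all genes from 0.014 to 0.385. It was 70.2% with limma on the authors' RPKM values, where the test and the filter differed as well.

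**Figure D1:**
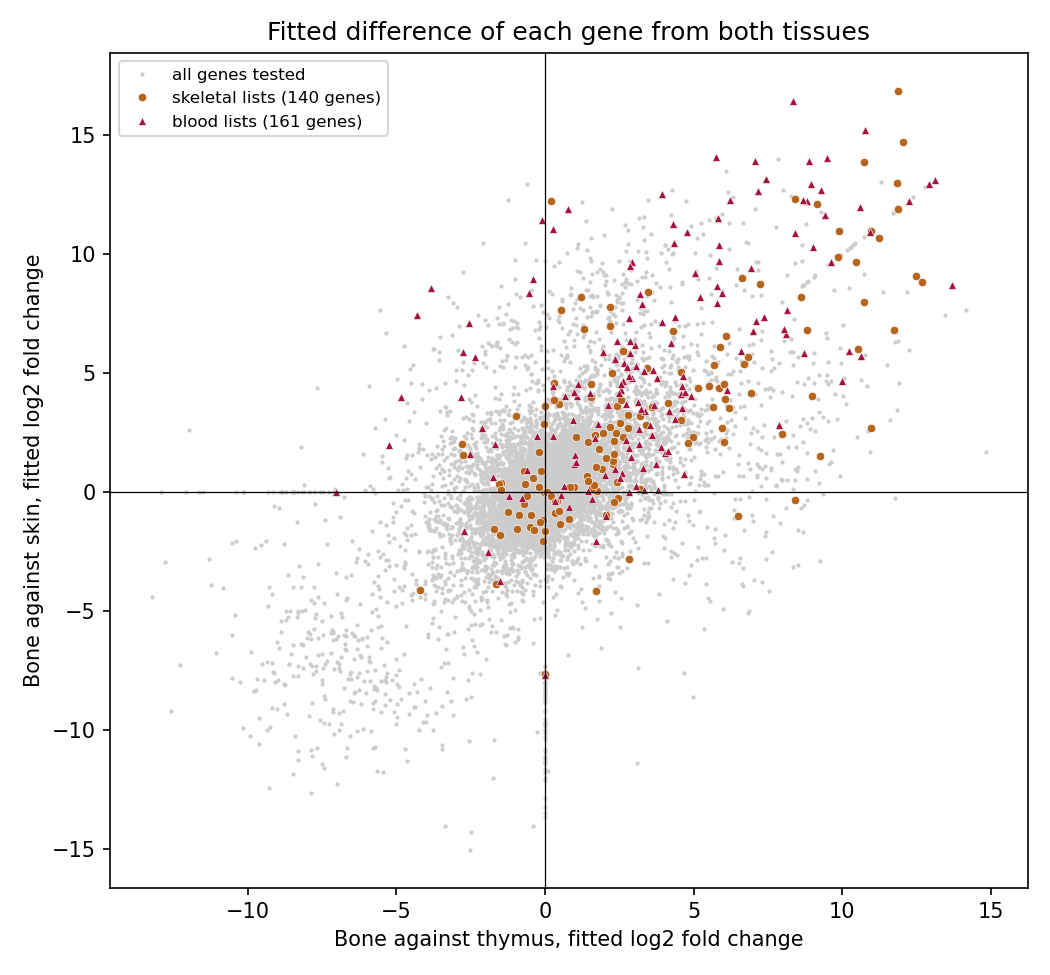
Fitted log2 fold change of bone against thymus (horizontal) and against skin (vertical) for the 15635 genes tested, with 140 skeletal-list genes as brown circles and 161 blood-list genes as red triangles; values of genes with no read in a tissue depend on the prior count of the fit. Most coloured points lie in the upper right, where bone is above both tissues: 88 skeletal and 120 blood genes were called higher, 13 and 4 lower.

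The 15 genes that stood furthest above both tissues were Col10a1, Ibsp, Clec3a, Elane, Mmp13, Prg4, Mpo, Spp1, Col2a1, Ngp, Camp, Epx, Comp, Megf10 and Mmp8. They belong to different kinds of cells. Col10a1, Ibsp, Clec3a, Mmp13, Prg4, Spp1, Col2a1 and Comp are genes of cartilage, bone or joint lining, while Elane, Mpo, Ngp, Camp and Mmp8 encode granule proteins of neutrophils and Epx the peroxidase of eosinophils. Megf10, an engulfment receptor, belonged to no list and read 154, 100.2 and 145 CPM in bone against 0.0503 to 0.118 in thymus and 0.0923 to 0.41 in skin. No bone library overlapped the other tissues for any of the 15, which the ranking required.

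**Figure D2:**
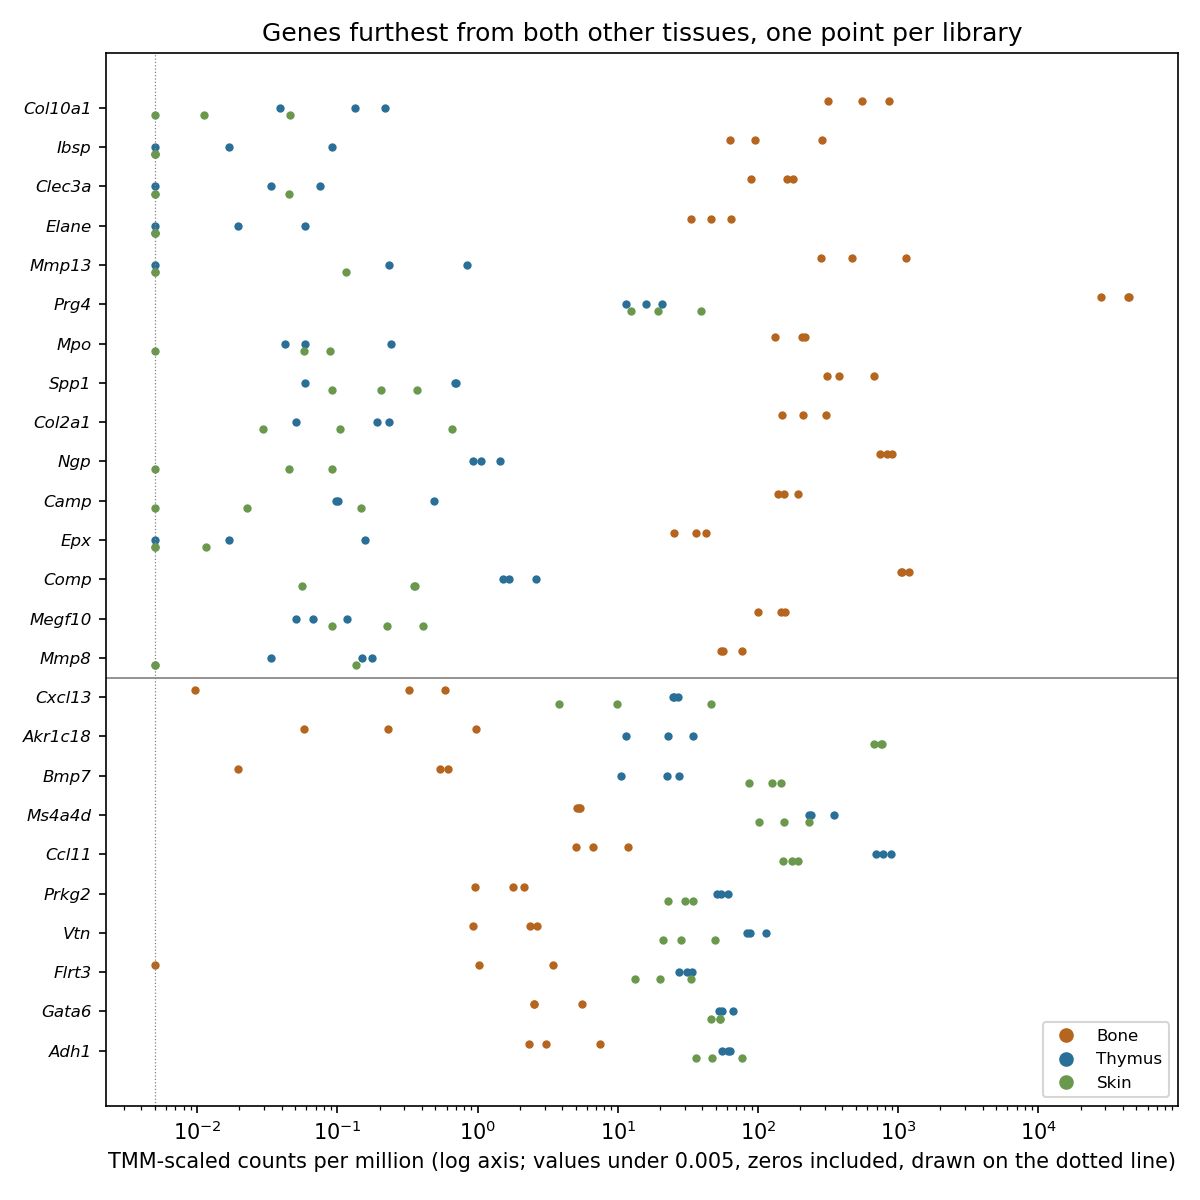
TMM-scaled CPM (log axis) in each of the 9 libraries for the 15 genes furthest above and the 10 furthest below both other tissues, 1 point per library. Col10a1 sat between 318 and 854 CPM in bone and at or under 0.218 elsewhere, while Ccl11 sat between 5.02 and 11.8 in bone and at or above 149.98 elsewhere.

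Skeletal genes were called higher for 88 of 147 listed genes, lower for 13, and 7 had too few reads to be tested; 71 and 8 passed the each-tissue rule. Blood genes were called higher for 120 of 171, lower for 4, and 10 were not tested, with 92 and 2 under the each-tissue rule. Erg and Angpt1, listed in both classes, were also higher. Of all 23420 genes in the count tables, tested or not, 13.5% were called higher. The same share was 59.9% of the listed skeletal and 70.2% of the listed blood genes. Among genes tested, 20.2% were higher and 19.3% lower, and 9.94% and 9.5% under the each-tissue rule. The counts of each list below can be set beside these shares. The median fitted log2 difference was 2.26 against thymus and 2.46 against skin over the skeletal genes tested, and 3.18 and 4.66 over the blood genes, beside -0.02 and 0.03 over all genes. With genes at 0 reads in a tissue set to the bound that 3 reads over that tissue allow, the 4 list medians were 2.27, 2.46, 3.20 and 4.51. Unlike the counts, these skeletal and blood medians include Erg and Angpt1 in both classes.

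By summed CPM the 2 classes differed, mostly through Prg4. CPM are not corrected for transcript length, so these sums do not measure the amount of RNA. The excess of bone over the higher of the other tissues, summed over all genes called higher, came to 138341 CPM. Skeletal lists held 36.5% of it, of which Prg4 alone was 27.8% and all other skeletal genes together 8.64%. Blood lists held 4.28%, and 57.7% lay in genes of no list. As a share of all gene reads, skeletal lists took 7.47, 6.34 and 7.75% in the 3 bone libraries and blood lists 0.912, 0.886 and 1.04%. In the other tissues skeletal lists took 1.07 to 1.21%, and blood lists 0.422 to 0.476% in thymus and 0.320 to 0.343% in skin. Some listed blood genes, such as Cd34, Ctsk and Ebf1, are also made by stroma.

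**Figure D3:**
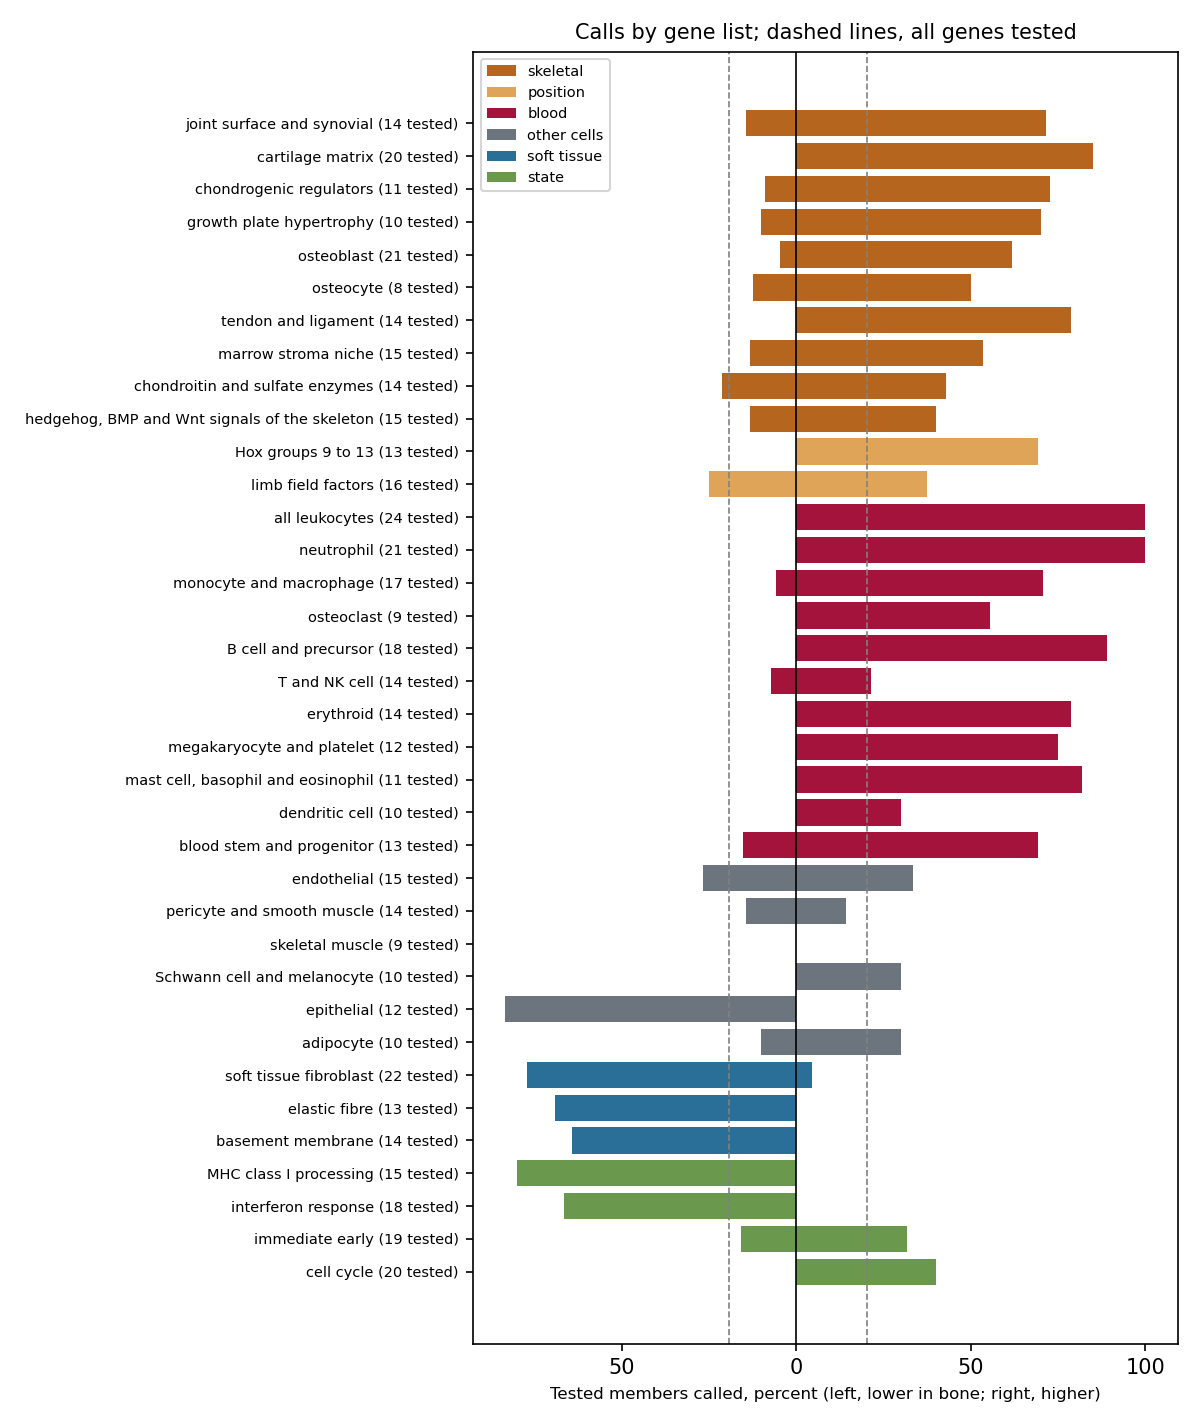
Percent of each list's tested genes called lower (left) or higher (right) in bone, by class; dashed lines mark 20.2% higher and 19.3% lower over all genes tested. Leukocyte, neutrophil, B cell and cartilage matrix lists reach furthest to the right, and epithelial, MHC class I, fibroblast and elastic fibre lists furthest to the left.

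Prg4, which held 27.8% of the summed excess, belongs to the genes of joint surface and synovium. In the joint surface and synovial list 10 of 14 genes were called higher and 2 lower, with 8 and 1 under the each-tissue rule. Prg4 (chr1:150449412-150466165, mm10), which encodes lubricin, read 44074, 27936 and 43499 CPM in bone against 11.5 to 20.6 in thymus and 12.5 to 39.1 in skin. The lowest bone library was 714 times the highest other library, and the log2 difference from the mean of both tissues was 10.95 ± 0.42 (SE, adjusted p = 7.4e-08). Per length, Prg4 reached a mean of 7807 RPKM in bone, above Fn1 at 4422 and Col10a1 at 187.

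Clic5, a chloride channel family protein, read 1006, 572 and 824 CPM in bone against 1.26 to 2.82 in thymus and 1.14 to 5.49 in skin. Col22a1, a collagen of tissue junctions, read 1020.4, 592 and 814 CPM in bone against 1.56 to 3.06 in thymus and 0.127 to 0.18 in skin. In both genes Bone 2 was the lowest of the bone libraries, as it was for Prg4. Thbs4, a thrombospondin of tendon matrix, was higher too, at 1001, 1041 and 1778 CPM in bone against 239.9 to 247 in thymus and 159.8 to 321 in skin.

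Cilp, a cartilage intermediate layer protein, overlapped between tissues, at 662 to 978 CPM in bone, 342 to 471 in thymus and 534 to 913 in skin, and passed only against the mean. The list also held genes that did not set bone apart. Hyaluronan synthase gene Has1 was not called, at 535, 343 and 519 CPM in bone against 2.17 to 10.5 in thymus and 798 to 1124 in skin, and Has2 was called lower with overlapping libraries, at 36.1 to 67.5, 46.9 to 51.9 and 100 to 119.8. Htra1, a secreted protease, was lower than in both tissues (408 to 487 CPM against 603 to 693 and 1091 to 1403), and Creb5 read 50.3 to 74, 5.68 to 17.7 and 69.1 to 81.

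Most genes of the cartilage matrix were higher in bone, with none lower. In this list 17 of 22 genes were called higher and 0 lower, with 15 and 0 under the each-tissue rule. Col2a1 (chr15:97975602-98004724), the type II collagen chain of cartilage, read 209, 304 and 148 CPM in bone against 0.0503 to 0.235 in thymus and 0.0293 to 0.652 in skin, a log2 difference of 10.04 ± 0.58 (adjusted p = 1.2e-06). Acan, the large proteoglycan aggrecan, read 134, 208 and 183 CPM in bone against 0.0336 to 0.0588 in thymus and 1.07 to 1.92 in skin. Both were highest in Bone 2.

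Comp, a matrix protein that binds collagen fibrils, read 1059, 1048 and 1199.9 CPM in bone against 1.51 to 2.59 in thymus and 0.0562 to 0.358 in skin. Col11a1 read 187, 436 and 238 CPM in bone against 0.386 to 0.853 in thymus and 12.9 to 25.5 in skin and Chad, the cell-binding chondroadherin, 179, 302 and 333 CPM in bone against 0.101 to 0.235 in thymus and 0.161 to 2.55 in skin. Clec3a, a lectin of cartilage, read 89.2, 178 and 162 CPM in bone against 0 to 0.0753 in thymus and 0 to 0.045 in skin. Matn1, a matrilin, had reads in bone alone, at 3.05, 3.26 and 1.15 CPM, and was at least 291-fold higher than in thymus and at least 209-fold higher than in skin, taking 3 reads over a tissue as the floor. Prelp, a small leucine-rich proteoglycan of many connective tissues, was not called and was highest in thymus (1452 to 2232 CPM against 999 to 1260.4 in bone). Lect1 and Ucma were scarce and not called, Ucma being at most 0.66 CPM, and Mia and 3110079O15Rik, the symbol the files use for Snorc, were not tested.

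Transcription factors and receptors of chondrocytes were mostly higher. Among chondrogenic regulators 8 of 13 genes were called higher and 1 lower, with 7 and 1 under the each-tissue rule. Sox9, the master factor of cartilage, read 52.1, 51.7 and 62.9 CPM in bone against 10.6 to 19.2 in thymus and 7.61 to 12 in skin, a log2 difference of 2.21 ± 0.19 (adjusted p = 4.1e-06). Its partners Sox5 and Sox6 read 74.5, 64 and 76.1 and 18.1, 18.3 and 19.7 CPM in bone, with at most 12.4 and 2.24 in any other library. For these 3 factors the bone libraries did not overlap the others, as for 2343 of the 3164 genes called higher. Trps1, a zinc finger factor of the growth plate, read 189, 173 and 234 CPM in bone against 73.2 to 87.5 in thymus and 0.674 to 3.1 in skin. Fgfr3, the receptor that restrains growth plate division, read 11.2, 14.1 and 9.85 CPM in bone against 2.45 to 5.73 in thymus and 1.42 to 5.12 in skin. Zfp219, a Sox9 cofactor, was lower in bone, at 15.3 to 21.5 CPM against 29.9 to 40.4 and 30.6 to 41. Frzb was not called, at 2.61 to 6.63 CPM in bone and 4.18 to 5.76 in thymus.

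Genes of hypertrophic chondrocytes were higher for most members and differed between the bone libraries. In this list 7 of 10 genes were called higher and 1 lower, with 5 and 0 under the each-tissue rule. Col10a1 (chr10:34389981-34397085), the collagen of hypertrophic cartilage, read 318, 854 and 552 CPM in bone against 0.0392 to 0.218 in thymus and 0 to 0.0461 in skin. Its log2 difference was 13.37 ± 0.50 (adjusted p = 9.1e-08). Mmp13 (chr9:7272514-7283333), the collagenase that opens hypertrophic matrix, read 279, 1139 and 468 CPM in bone against 0 to 0.837 in thymus and 0 to 0.115 in skin, with a log2 difference of 12.30 ± 0.91 (adjusted p = 6.2e-06). Bone 2 held the most of both, 2.69 and 4.08 times the level of Bone 1. Panx3, a channel protein of hypertrophic cells, was at 4.2, 7.56 and 2.5 CPM in bone with no read elsewhere, at least 563-fold above thymus and 403-fold above skin.

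Alpl, the alkaline phosphatase needed for mineral, read 43.7, 84.6 and 39.8 CPM in bone against 3.75 to 5.62 in thymus and 3.43 to 6.72 in skin. Mef2c, a factor that drives hypertrophy, was well above thymus but near skin, at 42.3 to 50.8, 5.43 to 10.2 and 32 to 35.8 CPM. The hormone gene Pthlh was near thymus instead, at 36.5 to 46, 31.2 to 36.6 and 1.48 to 2.39. Pth1r, the receptor for that hormone, was called lower and overlapped thymus, at 25.1 to 34.3, 28.2 to 34.3 and 55.4 to 78.2. Ihh, the hedgehog ligand of prehypertrophic cells, was at 0.116 to 0.239 CPM in bone and not called.

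Osteoblast genes were higher for most members, with the mineral-binding proteins in front. In this list 13 of 22 genes were called higher and 1 lower, with 11 and 1 under the each-tissue rule. Ibsp (chr5:104299287-104311472), bone sialoprotein, read 63.2, 284 and 95 CPM in bone, at most 0.092 in thymus and nothing in skin, where the floor makes it at least 12637-fold lower. Spp1, osteopontin, read 308, 674 and 381 CPM in bone against 0.0587 to 0.696 in thymus and 0.0923 to 0.371 in skin. Bone 2 was again the highest in both.

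Runx2, the factor that commits cells to the osteoblast line, read 37.8, 66 and 35.9 CPM in bone against 13.4 to 19.7 in thymus and 2.15 to 3.53 in skin, a log2 difference of 2.76 ± 0.22 (adjusted p = 2.5e-06). Sp7, the osterix factor downstream of it, was scarcer, at 7.04, 11.9 and 6.63 CPM in bone and 0.777 to 1.78 in skin, with 1 read in all of thymus, a ratio of 2980.0 with a 95% counting interval of 534 to 117747. The osteocalcin genes Bglap and Bglap2, near-identical copies whose reads the counting may have split, were low, at 5.93 to 8.02 and 7.99 to 8.54 CPM in bone. Enpp1, which makes pyrophosphate, read 78.6, 105 and 139.8 CPM in bone against 13.1 to 21 in thymus and 1.44 to 2.16 in skin. Dlx3, a homeobox factor, was close to skin in its lowest library, at 43.5 to 73.7 CPM against 8.33 to 39.5, and thymus was at most 0.196.

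Several genes with osteoblast roles were not higher. Smpd3, a sphingomyelinase needed for mineral, was lower than both tissues, at 14.4 to 53 CPM against 61.5 to 130.0 and 414 to 616. Tnfrsf11b, the decoy receptor osteoprotegerin, did not pass, at 16.2 to 25, 9.76 to 19.2 and 22.6 to 30.7, and Fam20c, the kinase of secreted phosphoproteins, did not either, at 40.8 to 46.2, 119 to 131 and 33.5 to 35. Ank read 104 to 116, 105 to 131 and 12.4 to 17.8 CPM and Wisp1 18.7 to 37, 32.1 to 37 and 7.63 to 12.7, neither called. Ifitm5, a gene of mature osteoblasts, was at most 1.04 CPM in bone.

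For osteocytes, cells buried in bone, 4 of 10 genes were called higher and 1 lower, with 3 and 1 under the each-tissue rule. Phex, a peptidase of phosphate control, read 58.1, 74.2 and 28.2 CPM in bone against 0.451 to 0.636 in thymus and 0 to 0.176 in skin, and Fbln7 and Tnc were higher as well. Dmp1 was called against the mean but overlapped thymus, at 11.1, 0.776 and 6.07 CPM against 4.9 to 5.95, with no read in skin. The defining gene Sost had no read in bone, and Mepe and Dkk1 were not tested. Pdpn, a mucin-like protein of early osteocytes and of other stroma, was lower in bone, at 73.9 to 119 CPM against 264 to 325 and 289 to 419.

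In the tendon and ligament list 11 of 14 genes were called higher and 0 lower, with 10 and 0 under the each-tissue rule. Fmod, a proteoglycan that shapes collagen fibrils, read 545, 981 and 932 CPM in bone against 12.1 to 14 in thymus and 25.3 to 48.2 in skin. Tnmd, tenomodulin of tendon cells, read 63.1, 51.7 and 62.8 CPM in bone against 0.185 to 0.294 in thymus and 9.91 to 12.1 in skin, a log2 difference of 5.21 ± 0.16 (adjusted p = 1.4e-09). Bone was above skin for both and far above thymus. Col12a1 read 613, 1439 and 919 CPM in bone against 96.8 to 180.5 in thymus and 146 to 164 in skin and Angptl7 81.4, 128 and 138 CPM in bone against 0.73 to 2.87 in thymus and 0.36 to 2.16 in skin. Thbs2, Egr1 and Ptgs1 were not called; Egr1, an early response factor, read 1814 to 2245, 1149 to 1313 and 4367 to 4829 CPM in bone, thymus and skin.

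Stroma of the marrow niche supports blood stem cells with CXCL12 and stem cell factor. In that list 8 of 15 genes were called higher and 2 lower, with 7 and 1 under the each-tissue rule. Cxcl12 read 1094, 925 and 869 CPM in bone against 203 to 270.4 in thymus and 300.2 to 454 in skin, a log2 difference of 1.74 ± 0.15 (adjusted p = 5.1e-06). Lepr, the leptin receptor that marks such stroma, read 181, 190.5 and 133 CPM in bone against 26.7 to 38.7 in thymus and 34.3 to 44.2 in skin, and Foxc1, a factor of the same cells, 91.1, 80.1 and 84.5 CPM in bone against 16.1 to 20.7 in thymus and 2.61 to 2.77 in skin. All 3 were higher in every bone library than in any other, which also held for 2343 of the 3164 genes called higher. Igf1 was higher as well, at 811 to 835 CPM against 185 to 291 and 289.7 to 489.

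Other niche genes differed in another way. Kitl, stem cell factor, was not called, at 30.7 to 49.8 CPM in bone, 48.1 to 76 in thymus and 18 to 22.3 in skin. Vcam1, an adhesion protein for blood cells, was lower than both tissues, at 125 to 150.5 CPM against 207 to 238 and 179 to 202. Its log2 difference of -0.60 became -0.23 with library size alone and no longer passed. Ebf3 was called lower, overlapping thymus. Csf1, Bmp4 and Il7 were not called, Csf1 at 214 to 286, 216 to 315 and 684 to 841 CPM and Bmp4 at 24.3 to 29.5, 67.9 to 79.2 and 13.5 to 27.6.

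The list of chondroitin and sulfate enzymes, not all of which serve chondroitin, moved both ways: 6 of 14 genes were called higher and 3 lower. Under the each-tissue rule the counts were 4 and 3. Chst3, which sulfates chondroitin, read 23.4, 21.1 and 25 CPM in bone against 0.0671 to 1.06 in thymus and 0.349 to 2.05 in skin, and Xylt1, which starts the chain, 19.5, 27.5 and 42.1 CPM in bone against 4.18 to 8.59 in thymus and 6.32 to 12.2 in skin. Chst11 was called against the mean and overlapped skin, at 44.9 to 52.8 CPM against 13.3 to 16.3 and 39.8 to 50.2. Chst1, Chpf and Ext1, which serves heparan sulfate, were lower than both tissues; Ext1 read 81.9 to 99.4 against 164 to 188 and 239 to 282. Papss2, Slc26a2 and Chsy1, also used by cartilage, were not called.

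Among hedgehog, BMP and Wnt genes 6 of 15 genes were called higher and 2 lower, with 3 and 0 under the each-tissue rule. Hhip, a hedgehog-binding inhibitor, read 87.5, 93.8 and 69.3 CPM in bone against 0.134 to 1.9 in thymus and 17 to 21.9 in skin and Dkk3 168, 207 and 179.7 CPM in bone against 51.2 to 65.6 in thymus and 21.8 to 45 in skin. The hedgehog targets Gli1 and Ptch1 were above thymus but overlapped skin, Gli1 at 30.1 to 35.6, 8.21 to 14.7 and 23.4 to 34.2 CPM. Gdf6, a joint-forming ligand, was called lower, with 0, 0 and 0.705 CPM in bone, and Wnt10b was called lower while overlapping thymus, at 8.98 to 10.4, 6.8 to 14.4 and 33.9 to 50.2.

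Genes of body position were compared next. HOX factors of groups 9 to 13 pattern the lower trunk and limbs, and 9 of 16 genes were called higher and 0 lower, with 7 and 0 under the each-tissue rule. Hoxa10 read 49.6, 30.7 and 29.6 CPM in bone and 9.6 to 14.2 in skin with no read in thymus, at least 4158-fold lower. Hoxa11 read 24.2, 18.2 and 26.4 CPM in bone, 0.104 to 0.124 in skin and 0 in thymus. Hoxd9 was above both, at 13.2, 13.5 and 12.2 CPM in bone against 1.11 to 2.53 in thymus and 1.83 to 2.71 in skin. Hoxa13 and Hoxd13, the groups of the limb end, had reads in bone alone, at 1.76 to 2.36 and 1.15 to 1.94 CPM. Hoxc10 was not called, at 21.6 to 28 CPM in bone and 27.2 to 32.4 in skin, and Hoxb9 was read in skin only.

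Limb field factors were divided, with 6 of 16 genes were called higher and 4 lower, with 2 and 1 under the each-tissue rule, and their summed level was 676, 692 and 674 CPM in bone, 482 to 605 in thymus and 993 to 1165 in skin. Pitx1 and Tbx4, the pair that sets hind limb identity, were both higher: Pitx1 read 19, 18.6 and 23.8 CPM in bone with at most 0.784 elsewhere, and Tbx4 16.8, 23.7 and 21.8 CPM in bone against 0.571 to 1.03 in thymus and 0 to 0.0923 in skin. Tbx5, the factor of forelimb and heart, was lower than both, at 2.25, 0.614 and 0.781 CPM against 3.3 to 9.51 and 19.4 to 24. Tbx15 and Shox2 were called against the mean but overlapped skin, Tbx15 at 135 to 153, 3.92 to 4.97 and 125 to 162 CPM. En1, Emx2 and Msx2 were not called, En1 at 0.733 to 2.45, 0.0753 to 0.545 and 49.2 to 61.2.

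Genes of blood cells were also present in the bone libraries. In the list of genes shared by all leukocytes 24 of 24 genes were called higher and 0 lower, with 23 and 0 under the each-tissue rule. Lcp1, an actin bundler of white cells, read 112, 131 and 153 CPM in bone against 12.1 to 30.4 in thymus and 2.74 to 6.21 in skin. Rac2 and Laptm5 read 80.5, 96.1 and 92.3 and 84.1, 97.6 and 82.7 CPM in bone. In edgeR's quasi-likelihood test Ptprc was 3.90 ± 0.50 above the mean of the log2 levels of both tissues (adjusted p = 0.0002). Thymus 3 was the highest library outside bone for Ptprc, at 38.6 CPM, and it read above the other thymus libraries for Coro1a, Lcp1 and Cd53 as well. Arhgdib read 118 to 169 CPM against 50.4 to 96.9 and 35.3 to 55.4.

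Neutrophil genes had the highest summed level of the blood lists in bone. All 21 listed genes were called higher and all 21 passed against each tissue. Ngp read 829.5, 745 and 899.9 CPM in bone against 0.923 to 1.44 in thymus and 0 to 0.0923 in skin, a log2 difference of 11.75 ± 0.28 (adjusted p = 5.8e-10). S100a8 and S100a9, the calcium-binding pair of neutrophils, read 709, 578 and 919.5 and 851, 696 and 999 CPM in bone and at most 2.49 and 2.55 elsewhere. Ltf, lactoferrin of late granules, read 409, 356 and 445 CPM in bone against 2.63 to 2.97 in thymus and 0.0115 to 0.147 in skin.

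Granule genes made early in the lineage were present along with the late ones. Mpo (chr11:87793784-87804412), myeloperoxidase, read 206, 131 and 215 CPM in bone against 0.042 to 0.243 in thymus and 0 to 0.0879 in skin. Elane (chr10:79886312-79888216), neutrophil elastase, read 46, 33.5 and 64.2 CPM in bone, at most 0.0586 in thymus and 0 in skin, at least 3793-fold lower. The list's genes took 0.447, 0.406 and 0.530% of gene reads in the bone libraries and at most 0.00226% in any other. Per length Ngp averaged 716 RPKM in bone, above Spp1 at 272 and Mmp13 at 242.

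Monocyte and macrophage genes were less uniform: 12 of 17 genes were called higher and 1 lower, with 9 and 0 under the each-tissue rule. Lyz2 read 272, 250.04 and 308 CPM in bone against 5.66 to 30.9 in thymus and 12.9 to 47.6 in skin and Ccr2, a receptor of blood monocytes, 19.9, 14 and 14.5 CPM in bone against 0.503 to 0.686 in thymus and 0.147 to 1.72 in skin. All 4 members not called were Csf1r and the complement genes C1qa, C1qb and C1qc; the rest, apart from Lyz1, were called higher. Csf1r read 15.9 to 32.3 CPM in bone, 1.76 to 5.79 in thymus and 21.1 to 29.8 in skin, and the complement genes overlapped skin, with C1qa at 8.3 to 21.3, 2.04 to 7.3 and 6.8 to 30.7. Lyz1, a close copy of Lyz2 whose reads could be misassigned, was called lower at 0.228 to 0.273 CPM.

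Osteoclasts, the bone-resorbing relatives of macrophages, gave a mixed list: 5 of 11 genes were called higher and 0 lower, with 3 and 0 under the each-tissue rule. Acp5, tartrate-resistant phosphatase, read 88.6, 32.5 and 36 CPM in bone against 6.57 to 9.93 in thymus and 7.65 to 15.2 in skin, highest in Bone 1. Atp6v0d2, a pump subunit, read 9.77, 4.93 and 6.25 CPM in bone against 0 to 0.544 in thymus and 0 to 0.0692 in skin. Ctsk, the collagen-digesting cathepsin, was high everywhere, at 352 to 479 CPM in bone, 207 to 302 in thymus and 318 to 382 in skin. Mmp9 was not called, at 87.3 to 99.5 CPM in bone, 461 to 601 in thymus and 0.41 to 0.956 in skin. Calcr and Dcstamp, 2 defining genes, were not tested, and Ocstamp was at most 0.68 CPM.

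The B lineage was represented by early and later genes. In its list 16 of 18 genes were called higher and 0 lower, with 11 and 0 under the each-tissue rule. Cd79a and Cd79b, the signalling chains of the B cell receptor, read 21.3, 35 and 34.3 and 26.9, 31.3 and 29.2 CPM in bone and at most 1.76 and 0.843 elsewhere. Igll1, the surrogate light chain of B precursors, had reads in bone alone, at 9.77, 12.2 and 7.16 CPM. Dntt and Rag1, which serve receptor gene rearrangement in both B and T precursors, were shared with thymus; Rag1 read 21 to 32.2 CPM in bone and 19.1 to 58.2 in thymus. Ebf1, made by stroma as well, was not called, at 92.6 to 96.5, 59.9 to 99.4 and 114 to 132 CPM.

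T and NK cell genes were mostly not called. In that list 3 of 15 genes were called higher and 1 lower, with 1 and 0 under the each-tissue rule. Cd3e, Cd3d and Cd3g, the receptor chains, read at most 1.29, 0.564 and 0.418 CPM in bone and up to 10.0, 8.59 and 16.3 in thymus. Cd8a was at 8.65 to 28.1 CPM in thymus and 0.0341 to 1.4 in bone. Nkg7, a granule protein of killer cells, was higher in bone, at 5.32, 2.58 and 5.4 CPM in bone against 0.126 to 1.04 in thymus and 0 to 0.0586 in skin.

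Red cell genes were mostly higher in bone. In the erythroid list 11 of 18 genes were called higher and 0 lower, with 5 and 0 under the each-tissue rule, and 4 were not tested. Slc4a1, the band 3 anion channel, read 14.1, 10.7 and 8.66 CPM in bone and at most 0.415 elsewhere. The adult beta globin listed as Beta-s read 68.8, 66.2 and 63.4 CPM in bone against 1.63 to 14.9 in thymus and 26.3 to 38.3 in skin; other globin copies share its sequence, so its level is uncertain. Klf1 and Epor were not called.

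Of the platelet genes 9 of 14 genes were called higher and 0 lower, with 5 and 0 under the each-tissue rule, while the list's summed level overlapped skin (158, 120.2 and 219 CPM in bone against 205 to 251). Ppbp, a platelet chemokine, read 14.2, 1.04 and 37.5 CPM, lowest in Bone 2, with at most 0.254 elsewhere. Pf4 did not pass, at 4.11, 1.79 and 9.45 CPM, and neither did Itgb3, also made by stroma, at 90.7 to 116, 17 to 29.7 and 183 to 226.

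Eosinophil and basophil genes were mostly higher. In the list of mast cells, basophils and eosinophils 9 of 12 genes were called higher and 0 lower, with 7 and 0 under the each-tissue rule. Prg2, the eosinophil major basic protein, read 80.6, 102 and 146 CPM in bone, 0.0784 to 0.577 in thymus and 0 in skin, at least 8761-fold lower. Epx read 25.2, 36.3 and 42.6 CPM and Prss34, a basophil protease, 8.07, 6.5 and 3.62. The mast cell genes Cma1 and Tpsb2 were scarce and not called, at most 1.13 and 0.742 CPM in bone.

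Blood stem and progenitor genes were higher for 9 of 13 and lower for 2, with 7 and 2 under the each-tissue rule. Myb read 42.6, 48.8 and 53.2 CPM in bone against 3.16 to 10.2 in thymus and 0.147 to 0.554 in skin and Kit 4.42, 27.3 and 14.6 CPM in bone against 0.602 to 0.657 in thymus and 0.147 to 1.67 in skin, with Kit highest in Bone 2 by 6.18 times over Bone 1. Flt3, listed with dendritic cells and also a gene of lymphoid progenitors, read 3.84, 19.7 and 13.1 CPM with the same order. Cd34 and Meis1, which stroma also expresses, were lower in bone; Cd34 read 599, 577 and 526 CPM in bone against 2069 to 2251 in thymus and 3198 to 3335 in skin. Of the 10 dendritic cell genes 3 were called higher and none lower, and Irf8, not called, read 21 to 24.3, 86 to 111 and 2.27 to 4.41.

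The order of the 3 bone libraries differed between lists of each class. Summed over all skeletal and over all blood lists it was the same, with Bone 3 highest and Bone 2 lowest. For the skeletal lists this rested on Prg4: without Prg4 their sum was highest in Bone 2 and lowest in Bone 1. Summed over a list, the hypertrophy genes read 763, 2219 and 1182 CPM and the osteoblast genes 856, 1564 and 1014, both highest in Bone 2. The joint surface sum was lowest in Bone 2, at 49731, 32509 and 49983. Neutrophil genes summed to 3855, 3293 and 4525 CPM and platelet genes to 158, 120.2 and 219, also lowest in Bone 2, while the B cell sum, 266, 358 and 315, was highest there. Leukocyte genes summed to 1028, 1164 and 1225 CPM in bone, 145 to 339 in thymus and 74.1 to 113 in skin.

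Skeletal genes without Prg4 summed to 20268, 23507 and 22687 CPM and blood genes to 7862, 7187 and 8858, a ratio of 2.58, 3.27 and 2.56. The same ratio was 2.29 to 2.56 in thymus and 3.17 to 3.53 in skin, so the bone values lay between the lowest thymus and the highest skin value. The stem and progenitor list, which holds Cd34, also made by stroma, averaged 882 CPM in bone, 2359 in thymus and 3398 in skin. The neutrophil list averaged 3891, 16.5 and 6.54 CPM. The blood sum thus held different genes in each tissue, and the ratio does not compare skeletal with blood cell RNA between tissues. Between the bone libraries the median ratio of SD to mean was 0.287 over skeletal genes called higher, 0.247 over blood genes called higher and 0.161 over all genes called higher. These orders rest on 3 libraries and carry no test. Whether blood cells took part in the level of any single gene was not tested.

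**Figure D4:**
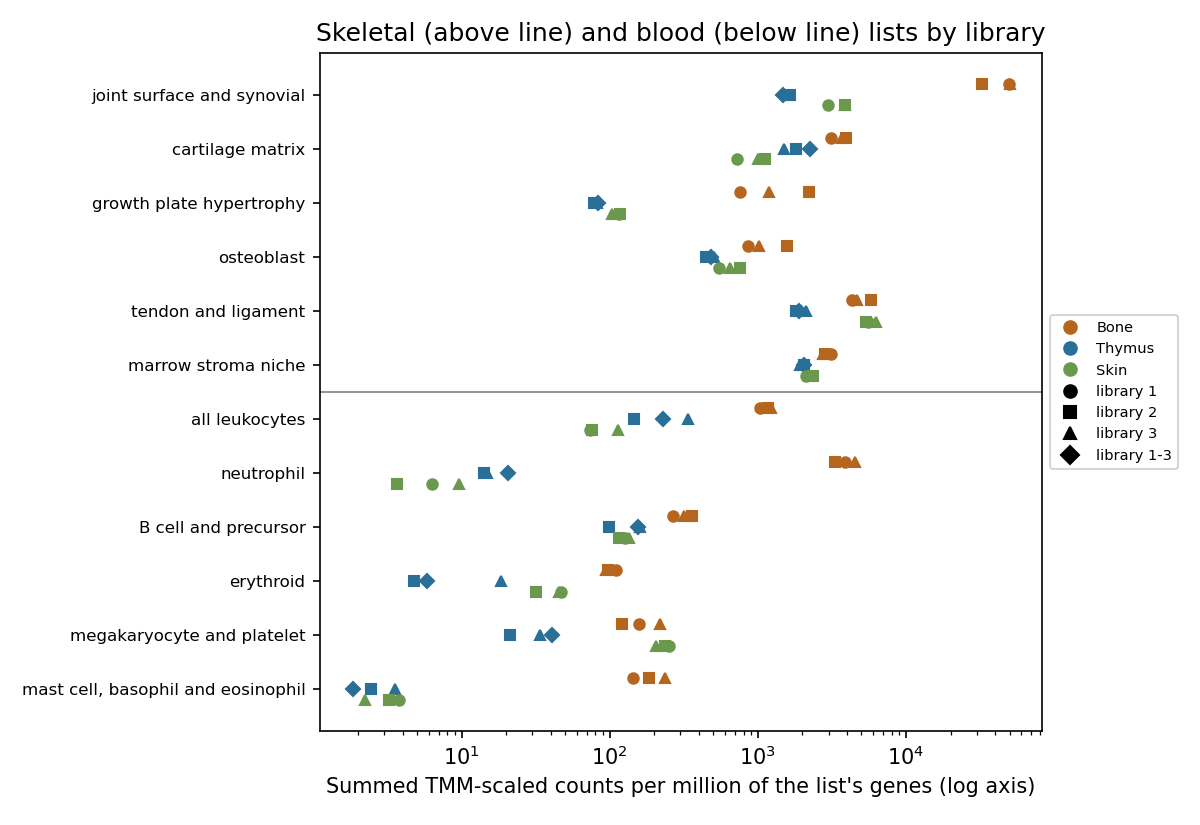
Summed TMM-scaled CPM (log axis) of the genes of 6 skeletal and 6 blood lists in each of the 9 libraries; marker shape gives the library number. Bone 2 (brown square) is lowest for the joint surface and neutrophil lists and highest for the hypertrophy and osteoblast lists.

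The starts of these genes were compared for short motifs, since the fit did not use sequence. Promoters came from RefSeq on GRCm38.p6, the build of the deposited files (mm10), from 250 bases before to 50 bases after each start. Entries were found for 61 of the 88 skeletal and 92 of the 120 blood genes called higher, 83 and 105 promoters. The 4 motifs, each of 6 bases, were searched on both strands: TGTGGT, bound by RUNX factors; ACAATG, bound by SOX factors; GAGGAA, bound by PU.1 and other ETS factors; and AGATAA, bound by GATA factors. No motif contains another, though matches may share end bases, and a match describes letters alone.

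GAGGAA was in 46.7% of the blood promoters (49 of 105), 30.1% of the skeletal ones and 28.3% of all 32851 promoters. TGTGGT was in 25.7%, 16.9% and 16.8%, and AGATAA in 18.1%, 9.64% and 11.2%. ACAATG was in 6.67% of blood, 13.3% of skeletal and 12.6% of all promoters. The skeletal shares were thus close to those of all promoters for the 4 motifs, and the blood shares were above for 3 of them and below for ACAATG.

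The 250 bases before the start are shown for the highest ranked genes of each class that hold a motif there, 2 skeletal and 2 blood genes, with the matches in capitals. All 4 lie on the plus strand, at chr5:104299037-104299286 for Ibsp, chr9:7272264-7272513 for Mmp13, chr10:79886062-79886311 for Elane and chr11:87793534-87793783 for Mpo. Ibsp holds 1 SOX motif, Mmp13 1 RUNX motif in the other orientation, Elane 1 PU.1 motif and Mpo 2.
Ibsp: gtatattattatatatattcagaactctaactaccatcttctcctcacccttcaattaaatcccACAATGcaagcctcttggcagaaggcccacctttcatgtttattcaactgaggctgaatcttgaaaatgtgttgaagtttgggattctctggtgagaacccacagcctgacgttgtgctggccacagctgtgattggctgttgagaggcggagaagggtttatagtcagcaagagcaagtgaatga
Mmp13: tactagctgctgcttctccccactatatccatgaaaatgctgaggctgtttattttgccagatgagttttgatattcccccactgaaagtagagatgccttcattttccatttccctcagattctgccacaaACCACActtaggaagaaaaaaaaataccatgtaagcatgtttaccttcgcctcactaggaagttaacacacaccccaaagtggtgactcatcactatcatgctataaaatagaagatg
Elane: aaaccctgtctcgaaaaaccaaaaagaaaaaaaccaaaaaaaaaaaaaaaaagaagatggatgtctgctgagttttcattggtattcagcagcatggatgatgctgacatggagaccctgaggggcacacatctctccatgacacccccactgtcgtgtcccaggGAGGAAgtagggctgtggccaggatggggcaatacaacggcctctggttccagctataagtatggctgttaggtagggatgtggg
Mpo: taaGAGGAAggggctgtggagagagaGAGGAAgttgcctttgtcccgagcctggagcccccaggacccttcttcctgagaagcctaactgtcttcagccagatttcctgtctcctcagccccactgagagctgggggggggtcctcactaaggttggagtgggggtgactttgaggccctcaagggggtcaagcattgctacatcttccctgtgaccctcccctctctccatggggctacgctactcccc

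Genes of other cells that the sort was meant to remove, or that lie in bone, were mixed. Endothelial genes were higher for 5 of 15 and lower for 4, with 2 and 2 under the each-tissue rule, and the defining genes were scarce: Cdh5 read 6.14 to 14.9 CPM in bone, and Kdr, the VEGF receptor, 1.93 to 4.61 against 6.37 to 11 and 32 to 48.6. Tek was called lower while overlapping thymus. Pericyte genes were divided, 2 higher and 2 lower of 14. Cspg4 (NG2) read 224, 189 and 224 CPM in bone against 21.5 to 27.5 in thymus and 10.4 to 18.4 in skin and Rgs5 64.1, 73.9 and 78.4 CPM in bone against 10.1 to 18.5 in thymus and 0.45 to 1.05 in skin, whereas the channel pair Kcnj8 and Abcc9 was lower than both, Kcnj8 at 4.57 to 6.61 CPM against 45.1 to 66.6 and 57.7 to 106. Des and Myh11 were not called, Des at 8.6 to 17.2, 556 to 836 and 9.05 to 13.4 CPM.

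None of the 12 skeletal muscle genes was called in edgeR's quasi-likelihood test, which gave 3 genes an unadjusted p under 0.05 against the mean, and 3 were not tested. The same test called 2 lower without Bone 1, 1 without Thymus 2 and 2 without Skin 3, and DESeq2 called 2 lower. Epithelial genes were lower for 10 of 12, 5 of them under the each-tissue rule; Krt5 read 0.0651 to 0.107 CPM in bone, 1.85 to 3.36 in thymus and 6.48 to 22.6 in skin. Adipocyte genes were higher for 3 of 12 and lower for 1, with Adipoq at 2.77 to 6.65 CPM in bone and Lpl lower than both, at 199 to 310.2 against 1114 to 1249 and 392 to 521. S100b, a calcium-binding protein of Schwann cells and cartilage, was higher (37.5, 23.9 and 27.3 CPM in bone against 0.193 to 1.33 in thymus and 7.18 to 7.69 in skin), while Sox10, a factor of Schwann cells, was not called.

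Genes furthest below both tissues were Cxcl13, Akr1c18, Bmp7, Ms4a4d, Ccl11, Prkg2, Vtn, Flrt3, Gata6 and Adh1. Ccl11, an eosinophil-attracting chemokine, read 6.61, 11.8 and 5.02 CPM in bone against 698 to 895 in thymus and 149.98 to 194 in skin, a log2 difference of -5.56 ± 0.31 (adjusted p = 2.7e-07). Cxcl13, the B cell attractant, was at most 0.586 CPM in bone and 24.9 to 26.8 in thymus. Its mean in skin was at least 20 CPM too, which the ranking required. Akr1c18, a steroid-converting enzyme, read 0.0582 to 0.981, 11.5 to 34.3 and 669.7 to 764 CPM, and Bmp7, a growth factor able to induce bone, 0.0194 to 0.618, 10.6 to 27.5 and 85.6 to 145. Gata6 read 2.51 to 5.52 against 52.3 to 66.5 and 46.5 to 53.7. No bone library reached another tissue for any of the 10, which the ranking required.

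Soft tissue fibroblast genes were mostly lower: 1 of 22 genes were called higher and 17 lower, with 0 and 11 under the each-tissue rule. C3, the complement factor, read 866, 559.8 and 634 CPM in bone against 22568 to 25397 in thymus and 1694 to 3557 in skin. Pi16 and Dpp4, genes of fibroblasts that lie around vessels and in fascia, were lower than both, Pi16 at 227 to 297 CPM against 761 to 1639 and 3342 to 4914. Gsn read 4504 to 6435 against 11437 to 13503 and 7132 to 13046. Dcn, a proteoglycan of most fibroblasts, overlapped between tissues, and Col15a1 did too, at 561 to 725, 5638 to 7858 and 640.1 to 968 CPM. Cd55 was the 1 gene called higher, overlapping skin, and Lum was not called, at 1601 to 1815, 1345 to 2076 and 1493 to 1787.

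Most listed genes of other matrix were lower too. Among elastic fibre genes 0 of 13 genes were called higher and 9 lower, with 0 and 7 under the each-tissue rule, and Eln, elastin, read 436, 503 and 348 CPM in bone against 1359 to 2785 in thymus and 5245 to 7722 in skin. Fbn1, fibrillin of microfibrils, read 3118 to 3535 CPM against 4596 to 5486 and 8813 to 12003. For the basement membrane 0 of 14 genes were called higher and 9 lower, with 0 and 8 under the each-tissue rule. Lama2, a laminin chain, read 217 to 259 CPM against 1236 to 1409.6 and 915 to 1045, and Nid1, which links laminin to collagen, 805 to 1097 against 2322 to 3181 and 4889 to 6309.8. The collagen IV chains Col4a1 and Col4a2 were not called, Col4a1 at 1424 to 1699, 3686 to 4565 and 791 to 1527.

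Most genes of antigen presentation and interferon response were called lower, and single libraries stood apart in both lists. In the MHC class I list 0 of 15 genes were called higher and 12 lower, with 0 and 12 under the each-tissue rule, and B2m, the light chain of the complex, read 556, 624 and 509.7 CPM in bone against 3397 to 7764 in thymus and 823 to 2789 in skin. H2-K1 read 144 to 171 CPM against 999 to 1113 and 356 to 634; it and H2-D1 are near-identical family members whose reads may be split. The MHC sum was 1247, 1376 and 1142 CPM in bone, 6655, 6188 and 10401 in Thymus 2, Thymus 3 and Thymus 1-3, and 1883, 2315 and 4836 in Skin 1, Skin 2 and Skin 3. In the interferon list 0 of 18 genes were called higher and 12 lower, with 0 and 8 under the each-tissue rule. Its sum was 504, 522 and 456 CPM in bone, 935 to 1059.7 in thymus and 1080.5, 1239.7 and 2781 in the skin libraries, with Skin 3 highest. Irf7, a factor of the interferon response, was called lower, and Skin 3 was its highest library, at 264 CPM where the other skin libraries read 32.9 and 42.3.

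Lists of cell state were compared as well. Immediate early genes, which can respond to tissue digestion, were higher for 6 of 19 and lower for 3. Nr4a2 read 254, 247 and 354 CPM in bone against 3.14 to 4.44 in thymus and 6.53 to 10.8 in skin, Jun was lower than both, and Fosb, not called, read 2471 to 3028, 626 to 945 and 3456 to 5167. Cell cycle genes were higher for 8 of 20 and lower for none, with 5 under the each-tissue rule. Mki67 read 159.9, 184 and 204 CPM in bone against 44.1 to 73.2 in thymus and 12.6 to 72.1 in skin and Rrm2 29.5, 30.5 and 35.6 CPM in bone against 5.84 to 7.78 in thymus and 3.59 to 10.5 in skin. These lists moved with tissue, and their part in other differences was not tested.

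Much of the excess lay outside the lists. The genes named here were chosen after their values were seen. Fn1, fibronectin, held 11.9% of the summed excess and read 39044, 31769.5 and 40038 CPM in bone against 1615 to 3018 in thymus and 16098 to 23979 in skin. Igfbp5, an IGF-binding protein, held 4.35% and read 8727, 9431 and 8559.6 CPM in bone against 1204 to 3124 in thymus and 2441 to 3462 in skin. Htra4, a secreted protease, read 1800.3, 1103 and 1308 CPM in bone against 2.73 to 4.18 in thymus and 1.16 to 2.47 in skin, and F13a1, a clotting subunit, 723, 470.2 and 758 CPM in bone against 0.386 to 4.54 in thymus and 7.14 to 13.3 in skin. Myoc, Cd109 and Crabp2 were higher than both as well, and Ctgf read 1423, 1105 and 1228 CPM in bone against 104 to 145 in thymus and 34 to 123 in skin. Itga10, the integrin chain that binds type II collagen, read 41.2, 48.7 and 39.2 CPM in bone against 1.68 to 3.94 in thymus and 1.43 to 2.24 in skin. The bone libraries did not overlap the others for any of these 9 genes, as for 2343 of the 3164 genes called higher. Their choice by value favoured this, so it adds no support.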

How the data were processed

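Bulk RNA-seq libraries of SCA1-positive, lineage-negative cells from bone, thymus and skin, 3 of each, were analysed. The authors deposited read counts per gene; CASAVA 1.8.2, HTSeq 0.5.4 and the mm10 build are named in the submitters' processing notes. For strand handling and annotation, the sources used here give nothing. The authors also deposited RPKM values per gene, used for levels between genes and as an alternative, and a coverage-like signal column whose making is not stated per the file headers, which was not used. Summary lines that name no gene were left out.

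Counts were fitted with edgeR 4.0.16 in R 4.3.3 (TMM factors, filterByExpr, robust quasi-likelihood test, all 9 libraries in 1 fit, no covariate) for bone minus the mean of thymus and skin and for each tissue alone, with Benjamini-Hochberg adjustment over the 15635 genes tested. limma 3.58.1 and DESeq2 1.42.0 served as alternatives. The fit was tested on simulated data. Errors of log2 differences are standard errors. Intervals and floors cover counting error only.

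Named genes were the 15 highest and 10 lowest by the smaller of their log2 differences from the 2 tissues (at least 20 CPM, no overlap), up to 5 called members of each list by level, members called the other way or not called, and the sort markers. Outside that rule and chosen after their values were seen were Bglap, Bglap2, Cd53, Coro1a, Dpp4, Hoxa13, Hoxd13, Igll1, Kit, Lama2, Matn1, Panx3, Sp7 and the unlisted genes closing the report. Members and lists were chosen with earlier results of these data known. Some listed genes are not reported here.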

Additional observations from a re-analysis of the deposited data

How the results depend on the processing

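No gene called higher was called lower, or the reverse, under any of the 12 settings or with a library left out. The number of calls did move. With library size alone 5039 genes were higher and 1418 lower, with 8 skeletal and 2 blood genes lower. limma on RPKM gave 1706 lower (pseudocount 1), 1697 (0.1) and 1787 (1, no filter), with 2 blood genes lower in both filtered fits. The each-tissue rule gave 1554 higher and 1486 lower, with 8 skeletal and 2 blood genes lower, and the 2-fold rule 1442 and 788, with 4 skeletal genes lower. DESeq2 gave 3432 and 3146.

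Leaving out 1 library in turn gave 2669 to 3187 higher and 2504 to 2942 lower genes. Skeletal genes were then higher for 81 to 90 and lower for 11 to 14, and blood genes higher for 108 to 121 and lower for 2 to 4. The replicate block added a term for each library number. Thymus 1-3 is the only library with its number, so it had a term of its own and did not inform the differences. That fit gave 2624 higher and 2509 lower, with 87 skeletal and 107 blood genes higher and 13 and 3 lower. The labels share only a number: deviations of same-numbered libraries correlated at -0.0823 to 0.091.

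Of 167 named genes called, 147 kept call and direction in every setting where they were tested, the 2 stricter rules aside. Not every named gene was tested in every setting. Pdgfra, lower at -0.36 (log2), changed sign to 0.0039 with library size alone, uncalled. Library size alone also ended the lower calls of Vcam1 (-0.23), Col15a1 (-1.43), Ebf3 (-0.34), Pth1r (-0.33), Dcn, Has2, Gdf6 and Lyz1. limma on RPKM ended those of Vcam1 (-0.32) and Col15a1 (-1.53 to -1.52) in all 3 fits and that of Ebf3 (-0.40) without a filter. All 3 limma fits also ended the calls of Pdgfra, Dcn, Has2, Lyz1, Wnt10b and Dmp1, and the fit without a filter that of Irf7. The replicate block ended the calls of Ctsk, Dcn, Dmp1, Irf7, Itga2b, Lyz1 and Pdgfra. Without the low count filter, Gdf6 and Irf7 were not called. The lower call of Pdgfra was also lost without Bone 2, Bone 3, Thymus 2, Thymus 3 or Skin 3, at -0.37 to -0.32. Without Bone 2, Epcam read -3.47 and Ptch1 0.64 and neither passed. Without Bone 3, Pecam1 read 0.71, Chst11 0.81, Cilp 0.42 and Itga2b 1.71. Cilp was also lost without Bone 2 (0.59), and Chst11 and Itga2b without Skin 3 (0.84 and 1.88). Dmp1 was lost without Bone 1 (5.39), Tbx15 without Skin 2 (2.51) and Wnt10b without Thymus 3 (-0.90). Dcn and Has2 were lost without Bone 1 (-0.51 and -0.50) or Bone 2 (-0.47 for both). Ctsk was lost without Bone 1, Bone 3, Skin 1 or Skin 2 (0.32 to 0.44), and Irf7 without any of the bone libraries (-2.28 to -1.95). Lyz1 was lost without any bone library, Thymus 3 or Skin 3 (-2.71 to -2.18), and Gdf6 without any library but Bone 3 (-4.33 to -3.56). The cause was not tested. Genes under about 1 CPM rest on few reads, and the number of libraries limits the precision of every difference.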

Other observations

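Some genes placed bone between the other tissues and so fell outside the main comparison. Against each tissue on its own, 511 genes passed edgeR's quasi-likelihood test in opposite directions, 208 above thymus and below skin and 303 below thymus and above skin. The genes named here were chosen after their values were seen. Enpp2, the enzyme autotaxin that makes lysophosphatidic acid, read 334, 294 and 331 CPM in bone against 3011 to 4403 in thymus and 22.5 to 38 in skin. Csf2rb, a receptor chain shared by several blood growth factors, read 11.7, 15.1 and 17.6 CPM in bone against 136 to 180.3 in thymus and 1.08 to 1.41 in skin, and Col26a1 1.59, 3.28 and 2.21 CPM in bone against 48.7 to 71.9 in thymus and 0.0879 to 0.254 in skin. In the other direction Ptx3, a secreted pattern recognition protein, read 80.3, 41.8 and 60 CPM in bone against 3.2 to 5.76 in thymus and 765 to 1746 in skin. Il31ra, the receptor for an itch cytokine, read 0.806, 2.45 and 1.66 CPM in bone against 0 to 0.0669 in thymus and 31.9 to 40.8 in skin, and the homeobox gene Emx2 5.15, 4.4 and 4.83 CPM in bone against 0 to 0.259 in thymus and 38 to 44.8 in skin. No bone library overlapped either tissue for these 6 genes. Their choice by value favoured this, and the share over the 511 genes was not counted.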
